A study of Mus musculus with 6 samples.

Results

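The genes described here are 42 genes of DNA replication and of the step from G1 to S phase, in kidneys of a mouse model of polycystic kidney disease. They were chosen from a list of names, for what their proteins do, and all 42 were found among the 23276 gene symbols of the deposited table. Both groups of mice carried KspCre, a Cre recombinase driven in renal tubule epithelium, with one floxed and one hypomorphic RC allele of *Pkd1* (Pkd1 F/RC). The 3 SKO mice had this genotype alone, and the 3 DKO mice were also miR17~92 F/F, that is, homozygous for a floxed miR-17∼92 cluster. Kidneys of all 6 mice were taken at postnatal day 22 by the sample labels (the study's text gives a day less), and total RNA was sequenced. No kidney of a mouse without the *Pkd1* alleles was analysed here. Cells outside the tubules, which do not express the recombinase, keep the floxed alleles in both groups.

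The table gives, for each transcript, 1 mean abundance over the libraries, in CPM (read counts scaled to one library size, deposited on a log2 scale), beside the authors' own comparison of DKO with SKO. Values of single kidneys are not among its columns. The comparison columns were not used, so no difference between SKO and DKO is given here, and the values below describe the mean of both genotypes. No standard deviation or test can be attached to them, the depth of each library is unknown, and the order of genes with close values is not established. In whole kidney RNA, fewer cells that express a gene and less RNA per cell cannot be told apart. A pooled mean also cannot check the labels of the knockouts: *Pkd1* was listed at 31.8 CPM and *Mir17hg*, the host transcript of the cluster, at 4.21 CPM.

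DNA replication is prepared in G1 phase, when the origin recognition complex, Cdc6 and Cdt1 load the ring-shaped MCM2-7 helicase onto DNA, the step of licensing. In S phase Cdc45 and the GINS complex turn the loaded rings into active helicases, and polymerases copy the strands with the sliding clamp PCNA. D-type cyclins with Cdk4 or Cdk6, then E-type cyclins with Cdk2, phosphorylate the retinoblastoma protein and release E2F transcription factors, which drive many of these genes. Most tubule cells of an adult kidney are out of the cycle, whereas proliferation of the cyst epithelium is a feature of polycystic disease. The mice described here were younger, at postnatal day 22, so what holds for an adult kidney need not hold for their tubules.

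The cluster that DKO mice were bred to lose encodes miRNAs with 4 different seeds, the bases 2 to 8 with which a miRNA pairs to its targets. Their mature sequences, from RefSeq (GRCm38.p6), are shown because the matches in the replication genes below are to these seeds. The cluster lies on the forward strand of chromosome 14. The seed is in capitals.

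miR-17-5p: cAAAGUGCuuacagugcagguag

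miR-20a-5p: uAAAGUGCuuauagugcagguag

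miR-18a-5p: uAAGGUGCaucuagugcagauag

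miR-19a-3p: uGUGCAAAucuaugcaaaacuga

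miR-19b-3p: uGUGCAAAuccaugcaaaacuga

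miR-92a-3p: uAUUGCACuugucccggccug

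miR-17 and miR-20a share a seed, as do miR-19a and miR-19b. A relative of miR-17 sits inside one of the replication genes. In *Mcm7*, which encodes a subunit of the replicative helicase, intron 13 of 14 holds the hairpins of *Mir106b*, *Mir93* and *Mir25*, on the same strand as the gene (reverse strand). *Mcm7* itself spans chr5:138164583-138172422 in the GENCODE annotation of GRCm38. The mature miR-106b-5p and miR-93-5p carry the same 7 seed bases as miR-17.

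miR-106b-5p: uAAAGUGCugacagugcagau

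miR-93-5p: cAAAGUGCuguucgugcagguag

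The miR-17 seed is therefore also encoded within a member that was listed at 11.4 CPM. What the deleted cluster leaves of miRNAs with this seed was not measured in these libraries.

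Levels were compared between genes per length, as the mean CPM divided by the transcript's length in kb. By this measure the 42 genes spanned a 274-fold range, from 0.166 CPM per kb for *Orc1* to 45.3 CPM per kb for *Ccnd1*. Their median was 2.66 CPM per kb, beside 1.50 over all 20167 genes with a known length, and 29 of the 42 lay above that value. Of the 42 genes, 41 had a mean of at least 1 CPM, beside 55.9% of all gene symbols. The gene just inside this threshold was *Gins1*, which equals the threshold when rounded to 2 decimals, and the only one outside it was *Orc1* at 0.499 CPM. Set against genes with at least 1 CPM only, whose median was 4.25 CPM per kb, 9 replication genes were above and 33 were not. The genes of this list were thus nearly all detected, and most sat in the lower part of the expressed range.

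**Figure D1:**
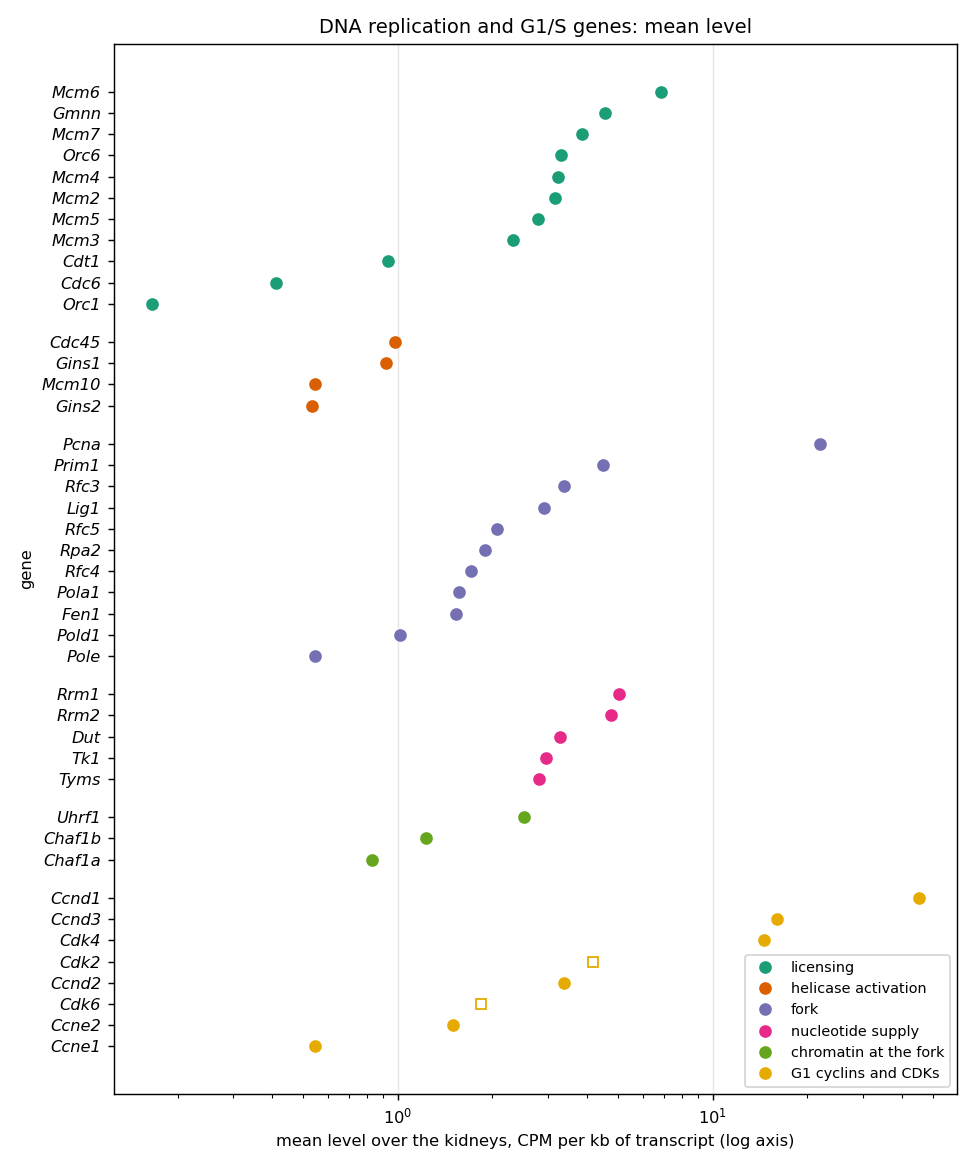
Mean level of each of the 42 genes in CPM per kb of transcript (log axis), grouped by role, with 1 point per gene for the mean over the kidneys of both genotypes. Open squares are the 2 genes whose kept transcript was assembled from the reads, for which a RefSeq length was used. *Ccnd1* (45.3), *Pcna* (22.0), *Ccnd3* (16.0) and *Cdk4* (14.6) stand to the right of all others, and *Orc1* (0.166) to the left.

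**Figure D2:**
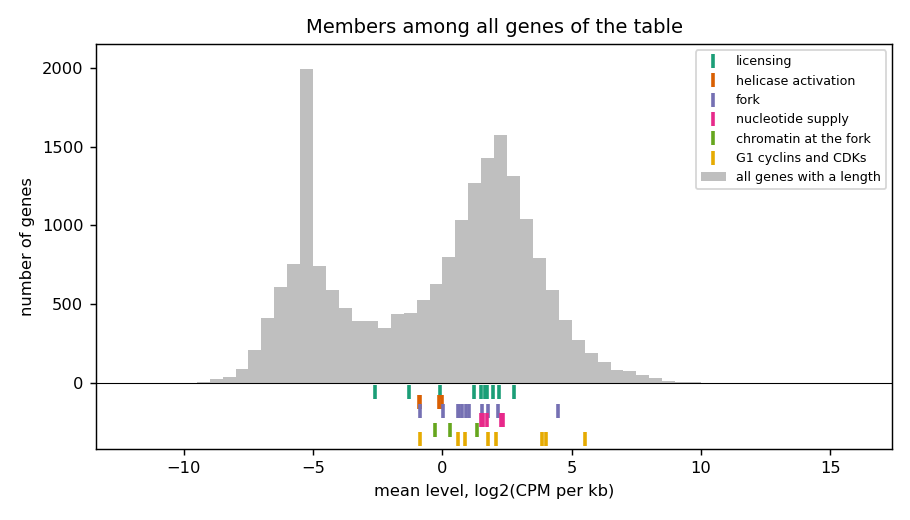
Grey bars count all 20167 genes with a length by their mean level in log2(CPM per kb), in steps of 0.5. Coloured ticks under the axis mark the 42 genes by role. The ticks lie over the right-hand hump of expressed genes, mostly left of its peak.

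Among licensing genes *Orc1*, *Cdc6* and *Cdt1*, which take part in loading the helicase, were lower than each of its subunits. *Orc1*, an ATPase subunit of the origin recognition complex, had the lowest level of the list, 0.166 CPM per kb. *Orc6*, the smallest subunit of the same complex, was at 3.30 CPM per kb, 19.9 times as high. *Cdc6* and *Cdt1*, which load the helicase, were at 0.411 and 0.935 CPM per kb. For *Cdc6* a shorter RefSeq transcript with nearly the same CPM gave 0.737 CPM per kb. *Gmnn* encodes geminin, which binds Cdt1 and blocks a second round of licensing, and its level of 4.55 CPM per kb was 4.87 times that of *Cdt1*. The inhibitor was therefore more abundant as RNA than the loader it binds.

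The 6 subunits of the MCM2-7 ring lay close together although they are read from 5 chromosomes. The highest was *Mcm6* at 6.87 CPM per kb and the lowest *Mcm3* at 2.33, a ratio of 2.95. Between them were *Mcm7* at 3.86, *Mcm4* at 3.24, *Mcm2* at 3.16 and *Mcm5* at 2.80 CPM per kb. These 4 middle values are close, and with no spread over kidneys their order is not resolved.

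The 4 genes of this list that activate the loaded helicase were all low. *Cdc45* was at 0.978 and *Gins1* at 0.921 CPM per kb. *Gins2* was at 0.534 and *Mcm10*, a factor needed for the helicase to start, at 0.547. All 4 were below the median of all genes, and *Mcm7*, a subunit of the ring they act on, was 7.05 times as high as *Mcm10*. The other GINS subunits, outside this list, were not both low, with *Gins3* at 0.810 and *Gins4* at 4.81 CPM per kb.

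Fork genes were led by *Pcna*, the sliding clamp that holds polymerases on DNA, at 22.0 CPM per kb. This gene lies at chr2:132249162-132253314 on the reverse strand and was at the 93.6 percentile of all genes with a length. The clamp is opened and loaded by replication factor C, and the small subunits *Rfc3*, *Rfc5* and *Rfc4* were at 3.37, 2.06 and 1.71 CPM per kb, so the clamp was 6.53 times as high as the highest of its 3 loader subunits in this list. PCNA also works in DNA repair, outside S phase.

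Among the catalytic subunits of primase and the polymerases in this list, that of primase came first. *Prim1*, the catalytic subunit that lays down RNA primers, was at 4.48 CPM per kb, 2.86 times the level of *Pola1*, which encodes the DNA polymerase subunit of the same complex (1.57). The catalytic subunits of the polymerases of the lagging and leading strand, *Pold1* and *Pole*, were at 1.02 and 0.546 CPM per kb. Of the genes that join and protect the strands, *Lig1* (DNA ligase) was at 2.92, *Rpa2* (a subunit of the single-strand binding protein) at 1.90 and *Fen1* (the flap endonuclease) at 1.53 CPM per kb.

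The 5 genes that supply nucleotides lay within a 1.79-fold range, or 2.23-fold with the shorter transcript of *Dut*. *Rrm1* and *Rrm2*, the large and small subunits of ribonucleotide reductase, were at 5.03 and 4.77 CPM per kb, a ratio of 1.05. *Dut*, which removes dUTP, had 2 RefSeq transcripts with the same 6.38 CPM, at 3.27 CPM per kb for the kept one of 1950 bases and 6.26 for the other of 1020 bases, the second above *Rrm1*. *Tk1* (thymidine kinase) and *Tyms* (thymidylate synthase), the salvage and the de novo route to thymidylate, were at 2.96 and 2.81 CPM per kb. The alternative small subunit *Rrm2b*, which is not restricted to S phase, was at 3.75 CPM per kb.

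Chromatin factors of the fork were *Uhrf1*, which recruits the maintenance DNA methyltransferase to hemimethylated DNA, at 2.52 CPM per kb, and *Chaf1b* and *Chaf1a*, subunits of the histone chaperone CAF-1, at 1.23 and 0.826. Their partner *Dnmt1*, the methyltransferase itself, was at 3.41 CPM per kb. *Rbbp4*, the third CAF-1 subunit, which also belongs to other chromatin complexes, was far higher at 13.8 CPM per kb.

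G1 cyclins and their kinases held 3 of the 4 highest levels. *Ccnd1*, which encodes cyclin D1 and lies at chr7:144929931-144939869 on the reverse strand, was at 170 CPM. Its level of 45.3 CPM per kb was 2.82 times that of *Ccnd3* (16.0) and 13.4 times that of *Ccnd2* (3.38), the genes of the other D-type cyclins. These ratios depend on the lengths. Before division by length *Ccnd3* was at 33.9 CPM and *Ccnd2* at 21.4, a wider gap below *Ccnd1* for *Ccnd3* and a narrower one for *Ccnd2*. The 6330 bases of *Ccnd2* include an annotated 3′-UTR of 5173 bases. The D-type cyclins made up 34.4% of the summed level of all 42 genes and *Ccnd1* alone 24.0%. The E-type cyclins, which act later in G1, were low, with *Ccne2* at 1.50 CPM per kb and *Ccne1* at 0.546. *Ccnd1* was thus 30.2 times as high as *Ccne2*.

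Among the kinases, *Cdk4*, a partner of the D-type cyclins, was at 14.6 CPM per kb and *Cdk2*, the partner of the E-type cyclins, at 4.16. The value of *Cdk2* is that of an assembled transcript divided by a RefSeq length, and its RefSeq transcripts were at 3.98 and 3.76 CPM per kb. *Cdk6*, the other partner of the D-type cyclins, cannot be placed with the same confidence. Its highest transcript, assembled from the reads, was at 21.2 CPM, whereas the RefSeq transcript was at 3.01 CPM, 7.03-fold lower. Divided by the same length of 11525 bases, these were 1.84 and 0.261 CPM per kb. The position and length of the assembled transcript are not in the table.

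The other RefSeq transcripts of these genes mostly had nearly the same CPM, but not always the same level per kb. The 42 genes had 76 transcripts in the table, 23 genes with 1 and 19 with more. Where several RefSeq transcripts were listed for a gene, in 13 genes, their levels lay within 0.1 on the log2 scale of each other in 11 of them, with the widest gap, 0.73, in *Gins1*. Per kb, 10 of these 13 genes kept their RefSeq transcripts within 1.5-fold of each other, and *Dut* (1.91-fold), *Cdc6* (1.79-fold) and *Gins1* (1.65-fold) did not, so the level printed for these 3 depends on the transcript kept. In *Ccne2*, *Tk1*, *Tyms* and *Gins1* all RefSeq transcripts were given the same length, so their ratio per kb only repeats that of CPM. In *Ccnd3* and *Fen1* some of them shared a length. Larger gaps came with assembled transcripts. In *Lig1* the assembled transcript was 24.9-fold below the highest, and in *Ccne2* the lowest of 2 assembled transcripts was 45.0-fold below the RefSeq ones. Transcripts that share exons are counted from overlapping reads, so they are not separate measurements of a gene.

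**Figure D3:**
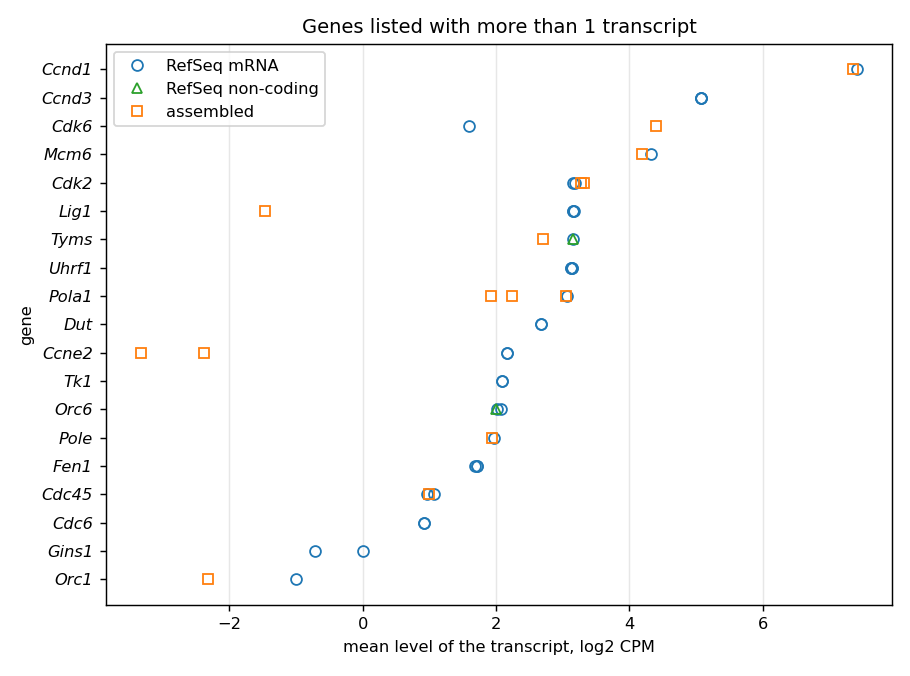
Mean level in log2 CPM of every listed transcript of the 19 genes with more than 1 transcript, by kind of identifier. RefSeq transcripts of a gene overlap in nearly all genes, while assembled transcripts of *Ccne2*, *Lig1* and *Orc1* lie to the left and that of *Cdk6* to the right of the RefSeq one (4.40 against 1.59). Assembled transcripts of *Pola1* run from 3.05 down to 1.92, beside 3.07 for the RefSeq one. That of *Tyms* is at 2.70 beside 3.15.

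Other genes of the pathway, listed by role and not by level, gave the surroundings of these values. Of 23 partner subunits and related genes, all were at 1 CPM or more. Their median was 4.29 CPM per kb, with a range from 0.555 for *Mcm8* to 13.8 for *Rbbp4*. *Mcm8* and *Mcm9* are relatives of the MCM genes and not subunits of the MCM2-7 ring. Within complexes these partners lay on both sides of the members, and the examples were chosen after their values were seen. *Rpa1* and *Rpa3*, the other subunits of the single-strand binding protein, were at 7.01 and 5.66 CPM per kb, 3.69 and 2.98 times *Rpa2*. The accessory polymerase subunits *Pole4* and *Pold4* were 8.18 and 6.14 times as high as the catalytic subunits *Pole* and *Pold1*. *Orc2*, at 3.73 CPM per kb, was 22.5 times as high as *Orc1* and close to *Orc6* (3.30). On the other side, *Prim2*, the regulatory subunit of primase, was at 1.60 CPM per kb, below *Prim1* (4.48). Some partners lay between members. *Rfc2* at 2.48 was below *Rfc3* (3.37) and above *Rfc5* (2.06) and *Rfc4* (1.71). *Gins3* at 0.810 was below *Gins1* (0.921) and above *Gins2* (0.534). The other RefSeq transcript of *Gins1* gave 0.557, which is below *Gins3*. *Gins4* at 4.81 was above *Gins1* and *Gins2*. Unequal RNA of subunits says nothing of unequal protein.

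Regulators of the step into S phase included both low and high genes. In the list of 11 kinases and regulators the median was 1.73 CPM per kb, from 0.129 for the helicase *Recql4* to 7.94 for *Slbp*, which binds histone mRNA. In the E2F and retinoblastoma list all 13 genes were at 1 CPM or more. The activator *E2f1* was at 1.30 CPM per kb, and *E2f4* and *E2f5*, which act mainly with repressor complexes, were at 6.25 and 5.35. *E2f7*, an atypical repressor, was the lowest of the list at 0.295 CPM per kb, and the dimer partner *Tfdp1* the highest at 11.0. Of 7 inhibitors of cyclin-dependent kinases 6 were at 1 CPM or more. The highest was *Cdkn1b* (p27) at 12.2 CPM per kb, 2.94 times its target *Cdk2* by the assembled transcript of *Cdk2*, and the lowest *Cdkn2a* at 0.108. Genes of the later phases G2 and M had a median of 1.42 CPM per kb, with *Mki67*, a common proliferation marker, at 4.08 and *Plk1*, a mitotic kinase, at 1.10.

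**Figure D4:**
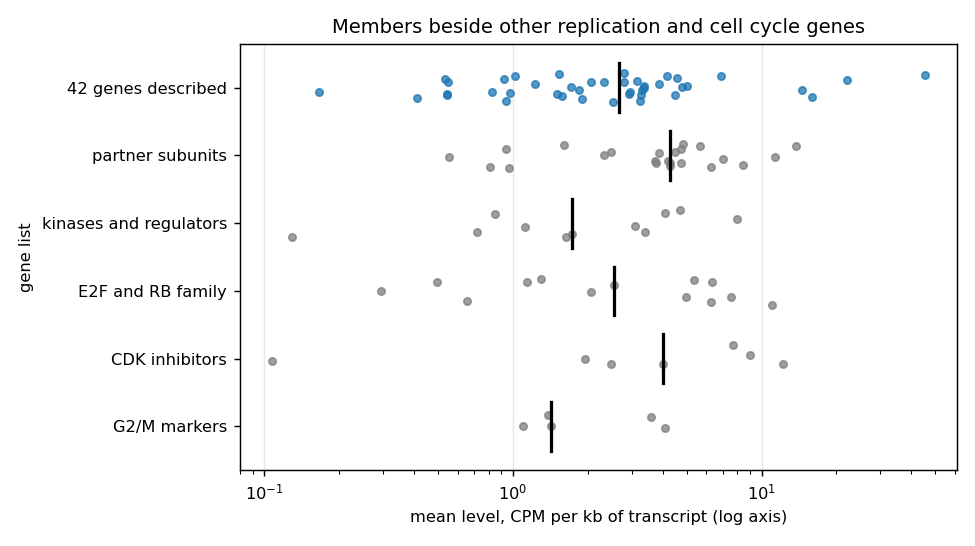
Mean level in CPM per kb (log axis) of the 42 genes and of 5 lists of other cell cycle genes, 1 point per gene, with the median as a black bar. Vertical scatter only separates the points. The medians run from 1.42 for the G2/M markers to 4.29 for the list of partner subunits and related genes, and all lists overlap the 42 genes.

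The tissue matched its label. Of 9 kidney markers all were listed at 1 CPM or more, with a median of 54.8 CPM per kb, from *Nphs1* of podocytes at 2.81 to *Slc34a1* of the proximal tubule at 423. *Cdh16*, the gene whose promoter drives KspCre, was at 480 CPM. Markers of pancreas, lung and heart (*Ins2*, *Sftpc*, *Myh6*) were at 0.0278, 0.0277 and 0.171 CPM, the first 2 next to the lowest value in the table, 0.0263 CPM. Other cell types were present: the endothelial marker *Pecam1* was at 52.7 CPM, the leukocyte marker *Ptprc* at 8.20, the macrophage marker *Adgre1* at 4.49 and a beta-globin transcript of red cells at 258. The liver gene *Alb* was at 13.4 CPM. How much of the replication RNA came from these cells was not tested.

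Promoters of the 42 genes were searched for the E2F motif in 4 forms of 8 letters (TTTCCCGC, TTTCGCGC, TTTGCCGC and TTTGGCGC), on both strands, in RefSeq windows from 250 bases before to 50 bases after the start. Windows were given for 34 of the 42 genes, and *Mcm4*, *Gmnn*, *Gins1*, *Gins2*, *Pole*, *Ccnd1*, *Ccnd2* and *Ccne2* had no entry. A match was found in 13 of the 34 (38.2%), beside 2.60% of 27025 genes with a window and 4.59% of the 9673 that were listed at 1 CPM or more. Of licensing genes 7 of 9 had a match, of fork genes 4 of 10, of chromatin genes 1 of 3, of cyclins and kinases 1 of 5, and of nucleotide supply and helicase activation genes 0 of 5 and 0 of 2. Some genes had several windows. Counted by window, 13 of 40 (32.5%) held a match, beside 2.26% of all 32851. The 19 matches lay between 185 bases upstream of the start of their window's RefSeq model and base 40 downstream of it, 12 before and 7 at or after that start. In 10 of the 13 windows with a match this start was within 100 bases of that of the transcript whose level is given. In *Cdc6*, *Mcm7* and *Uhrf1* it lay 350, 539 and 913 bases downstream, so distances for these 3 do not refer to that transcript. The promoters of *Mcm3*, *Mcm5*, *Mcm6*, *Mcm7* and *Rfc3* held more than 1. Stretches around the matches are shown for some of the 13 genes, mostly of licensing, to let the shared letters be seen. Those of *Mcm7*, *Cdk2*, *Lig1*, *Pola1*, *Pold1* and *Uhrf1* are not shown. The stretches are in the direction of the gene, GRCm38.p6, with the motif in capitals. A motif on the opposite strand reads as its reverse complement.

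*Mcm3*, chr1:20820263-20820305, reverse strand: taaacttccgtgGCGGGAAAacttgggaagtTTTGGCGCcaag

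*Mcm5*, chr8:75109344-75109379, forward strand: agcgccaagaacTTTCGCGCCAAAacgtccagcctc

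*Mcm6*, chr1:128359733-128359827, reverse strand: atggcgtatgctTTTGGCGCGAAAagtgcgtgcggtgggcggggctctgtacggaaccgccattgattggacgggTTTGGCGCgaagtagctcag

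*Rfc3*, chr5:151651189-151651230, reverse strand: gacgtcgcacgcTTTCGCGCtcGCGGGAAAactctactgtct

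*Orc1*, chr4:108579415-108579446, forward strand: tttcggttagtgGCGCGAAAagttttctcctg

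*Cdc6*, chr11:98908001-98908032, forward strand: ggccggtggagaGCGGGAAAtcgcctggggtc

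*Cdt1*, chr8:122568035-122568064, forward strand: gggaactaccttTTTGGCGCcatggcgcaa

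In *Mcm5* and *Mcm6* a pair of matches on opposite strands overlaps in one 12-base run of capitals. Genes with the same motif differed widely in level, from *Orc1* at 0.166 CPM per kb to *Mcm6* at 6.87. *Pcna*, at 22.0, had none of the 4 forms in its window. The start of that window lay 134 bases downstream of that of the transcript whose level is given. Binding of E2F was not measured.

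Seed matches of the deleted miRNAs were searched in the annotated 3′-UTR of each gene (GENCODE, GRCm38), which was available for all 42. The match to the miR-17 seed, GCACTTT, occurred in 8 of 42 genes (19.0%), beside 11.0% of 19137 genes with a 3′-UTR. Per length of 3′-UTR this was 0.159 matches per kb against 0.0995 over all genes, with a median 3′-UTR of 724 and 784 bases. The 8 genes were *Mcm3*, *Mcm7*, *Rpa2*, *Rrm2*, *Chaf1a*, *Ccnd1*, *Ccnd2* and *Cdk2*, each with 1 match. The site of *Mcm3* was an 8mer, that is, the match was followed by A, and the others were 7mers. The sites are shown in the direction of the gene, each with 10 bases on either side and the match in capitals, since these are the letters that miR-17 and miR-20a could pair with.

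*Ccnd1*, chr7:144931666-144931692, reverse strand: ccatttcaaaGCACTTTtggtcagcta

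*Ccnd2*, chr6:127129330-127129356, reverse strand: cattagaaaaGCACTTTgaaaattttg

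*Cdk2*, chr10:128698061-128698087, reverse strand: gttgccatgtGCACTTTgggattttgt

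*Mcm3*, chr1:20803156-20803182, reverse strand: ccacccccagGCACTTTAgtccaggaa

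*Mcm7*, chr5:138164621-138164647, reverse strand: ctcccatgctGCACTTTtttattctgc

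*Rpa2*, chr4:132778319-132778345, forward strand: tttcggaattGCACTTTccttcccttg

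*Rrm2*, chr12:24713630-24713656, forward strand: aataaaattgGCACTTTgcacacacac

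*Chaf1a*, chr17:56067780-56067806, forward strand: atgataaagaGCACTTTgtcctacatt

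The list covers every role but helicase activation. *Mcm7* thus carries a miR-17 match in its own 3′-UTR of 136 bases and hairpins with that seed in intron 13. The matches in *Ccnd1* and *Ccnd2*, which encode D-type cyclins, lie at bases 925 to 931 of 2676 and 989 to 995 of 5173 of the 3′-UTR. *Ccnd3*, *Cdk4* and *Cdk6* had no match, the last in a 3′-UTR of 10217 bases.

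Matches to the other seeds of the cluster were fewer. The miR-19 match TTTGCAC was found in 5 genes (11.9%, beside 9.99% of all genes), *Pola1*, *Rrm1*, *Rrm2*, *Ccnd1* and *Ccnd2*. The matches to miR-18 (GCACCTT) and miR-92 (GTGCAAT) were found in 1 gene each, *Gins2* and *Ccne2*, 2.38% of the 42 beside 7.21% and 5.97% of all genes. In total 12 of the 42 genes had a match to at least 1 seed and 30 had none, beside 5037 of 19137 genes with a match. The share of the 42 was thus near that of all genes. *Rrm2*, *Ccnd1* and *Ccnd2* had both a miR-17 and a miR-19 match. In *Rrm2* they share 3 bases, as the site shows when the miR-19 match is put in capitals.

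*Rrm2*, miR-19 match, chr12:24713634-24713660, forward strand: aaattggcacTTTGCACAcacacacac

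**Figure D5:**
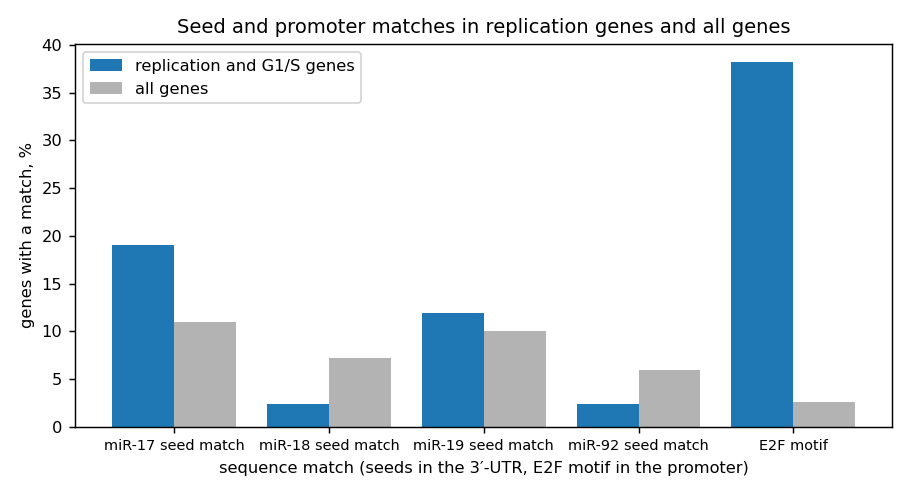
Percent of genes with a match, for the 42 genes (blue) and all genes (grey): seed matches in the 3′-UTR (42 and 19137 genes) and the E2F motif in the promoter (34 and 27025 genes). The widest difference is that of the E2F motif, 38.2% against 2.60%, and miR-17 stands at 19.0% against 11.0%.

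With at most 8 genes behind a share, the seed counts describe these 3′-UTRs and do not show that the 42 genes differ from other genes. A match in the annotation is not a measured site, and neither miRNA binding nor the length of the 3′-UTRs in use was measured in these kidneys.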

How the data were processed

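RNA of 3 SKO and 3 DKO kidneys was grouped by the genotype labels. The authors trimmed 51-base single-end strand-specific reads, mapped them to mm10 with TopHat 2.0.12 and the iGenomes annotation, and dropped alignments with a mapping quality under 10. Abundance was then estimated by the authors with edgeR or Cuffdiff, and their processing notes name edgeR 3.2.4, Cufflinks and featureCounts (Subread 1.4.6).

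The deposited table holds 54721 transcripts, of which 24160 were assembled from the reads. Its values used here are the authors' average abundance, given as log2 CPM and taken as over all 6 libraries. Whether CPM or its log2 was averaged is not stated with them. The lowest value, 0.0263 CPM, is shared by 4617 transcripts, so it is a floor of the scale. The columns with the authors' comparison (log2 fold change, likelihood ratio statistic, p-value and adjusted p-value) were not used. A test of counts was foreseen if single libraries were given, which they are not. Replicates from separate mice therefore give no error here, and depth is unknown. The CPM sum to 1007270 over all transcripts, and transcripts of a gene mostly list nearly the same value, so reads in shared exons appear more than once in the total by which CPM were scaled.

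For every gene the transcript listed at the highest CPM was kept. Lengths and 3′-UTRs came from the GENCODE M21 transcript with the same RefSeq identifier (for *Cdk2* and *Cdk6*, whose kept transcript was assembled, from their highest RefSeq transcript). Lengths may differ from those the authors counted on. Of 23276 symbols, 20167 had a length, and 18916 3′-UTRs were matched by identifier and 221 by symbol. Promoters and miRNAs were those of RefSeq (GRCm38.p6), and the last 30 bases of 34 of the 40 promoter windows were found in a GENCODE transcript of the gene. Searches were tested on simulated data. Python 3.11.15, numpy 2.4.6 and pandas 2.3.3 were used.

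Any of the 42 genes could be named, and of other lists only their extremes and a few examples were planned. More than planned were named for the partner subunits, the E2F and retinoblastoma list and the markers of other tissues. Some of those examples, and the ratios, were picked after their values were seen, as were the seeds of miR-18, miR-19 and miR-92. The members and lists were chosen with earlier results of these data known.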

Additional observations from a re-analysis of the deposited data

How the results depend on the processing

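The choices that could be varied were the transcript kept for a gene, the length, the low-value threshold and the kind of match. The median level of the 42 genes, 2.66 CPM per kb, was the same with the median over a gene's transcripts or RefSeq mRNAs only. It was 4.21 per kb of coding length, 2.65 with the lowest table value subtracted and 6.07 CPM with no division by length. The median percentile of 59.2 among all genes was 34.6 among genes with at least 1 CPM and 54.6 with no division by length. The 41 genes at 1 CPM or more were 41 at 0.5 CPM, 37 at 2 CPM and 39 with the median over transcripts. Beside 8 genes with a miR-17 match, 1 (*Mcm3*) had an 8mer (3.30% of all genes), 10 were found when 7mer-A1 sites were added, which brought in *Gins2* and *Ccne2* (beside 16.9%), and 8 were found in the longest annotated 3′-UTR (beside 12.8%). The 13 promoters with an E2F motif became 21 with the first T of the motif dropped (beside 10.9% of all promoters) and 7 when only motifs reading in the direction of the gene were counted (beside 1.38%). Counting promoter windows in place of genes, and the shorter transcript of *Dut*, were chosen after seeing the data. Coding lengths came from GENCODE. No paired analysis was possible because the table holds no value of a single kidney, and for the same reason no replicate could be left out.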
